A study of Mus musculus with 6 samples.

Results

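Myokines are secreted factors and hormones that skeletal muscle cells make and release, and 10 genes of this kind were read from an RNA-seq comparison of C2C12 myotubes: Fgf21, Igf1, Il15, Fndc5, Metrnl, Apln, Angptl4, Lif, Il6 and Bdnf. They were found by gene name, 1 row for each name, among the 55401 genes of the deposited table. C2C12 is a clonal mouse myoblast line that fuses into multinucleated myotubes when serum is low, so the values describe 1 line in culture and not muscle of an animal. The knockdown group received SENP7 siRNA, directed against a protease that takes SUMO off other proteins, and the control group received GL2 siRNA, directed against firefly luciferase. All 6 cultures had 100 pmol of siRNA for 3 days and were kept in DMEM with 2% horse serum and penicillin and streptomycin, with 3 cultures per group that the submitters call biological replicates. What separates one replicate from another is not given, so the p-values describe the spread between these 6 cultures. RNA was measured from whole cultures, where fewer cells of a type and less RNA per cell cannot be told apart, and secreted protein was not measured.

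Muscle releases factors that act on the muscle itself and on distant organs. FGF21 is an endocrine hormone of fasting and cell stress, IGF-1 drives muscle growth and repair, and IL-15 is a cytokine linked to muscle and fat metabolism. FNDC5 is the membrane precursor of irisin, and meteorin-like is a secreted protein of exercise and cold. Apelin is a peptide for a G protein-coupled receptor, and ANGPTL4 inhibits lipoprotein lipase. IL-6 and LIF both signal through the shared receptor gp130, and BDNF is a neurotrophin that muscle makes on contraction.

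Promoters of some members whose transcripts moved are shown first, since several regulators of these genes read short motifs there. RefSeq promoters (GRCm38.p6) matched 8 of the 10 members by gene name, with 14 windows of 250 bases before a start site, and Il15 and Angptl4 have none shown. The windows were searched on both strands for ACGTG and GCGTG (the hypoxia response core), TGANTCA (AP-1), TTCNNNGAA (STAT), TGATGNAA (ATF4), TGACGTCA (cAMP response) and CAGCTG (a myogenic E-box). Fgf21 and Fndc5 are printed as members that rose, Lif and Apln as members that fell. Igf1, which rose too, has a window that is not printed. It held GCGTG at 196, CAGCTG at 157 and TGANTCA at 37 bases before the start. Each line reads 5′ to 3′ on the gene's own strand, with matches in capitals.
Fgf21, chr7:45615491-45615740, minus strand: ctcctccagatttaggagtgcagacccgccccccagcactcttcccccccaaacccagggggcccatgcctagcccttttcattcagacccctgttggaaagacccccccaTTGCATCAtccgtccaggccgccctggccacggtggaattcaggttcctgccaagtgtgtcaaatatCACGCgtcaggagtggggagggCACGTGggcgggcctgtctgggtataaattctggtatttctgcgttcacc
Fndc5, chr4:129136749-129136998, plus strand: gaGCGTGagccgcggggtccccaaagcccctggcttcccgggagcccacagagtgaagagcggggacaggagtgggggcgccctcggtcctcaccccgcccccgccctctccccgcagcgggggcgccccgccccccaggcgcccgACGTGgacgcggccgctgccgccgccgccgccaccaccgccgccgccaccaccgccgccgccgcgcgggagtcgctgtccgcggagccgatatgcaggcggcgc
Lif, chr11:4257318-4257567, plus strand: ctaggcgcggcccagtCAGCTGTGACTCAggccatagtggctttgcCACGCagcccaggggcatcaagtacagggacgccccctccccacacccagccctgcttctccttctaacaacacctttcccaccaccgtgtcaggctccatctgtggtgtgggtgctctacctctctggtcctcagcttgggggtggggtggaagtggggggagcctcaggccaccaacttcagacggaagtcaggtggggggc
Apln, chrX:48034854-48035103, minus strand: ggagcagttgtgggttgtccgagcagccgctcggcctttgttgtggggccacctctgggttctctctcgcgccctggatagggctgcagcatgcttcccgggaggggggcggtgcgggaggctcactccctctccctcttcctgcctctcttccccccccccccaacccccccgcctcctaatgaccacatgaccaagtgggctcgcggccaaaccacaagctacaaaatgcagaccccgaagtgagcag

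The Fgf21 window held the palindrome CACGTG, which counts as ACGTG on both strands at 49 and 50 bases before the start. It also held GCGTG on the opposite strand at 72 bases and TGATGNAA on the opposite strand at 139 bases. In the Fndc5 window ACGTG lay 104 bases and GCGTG 248 bases before the start. The Lif window held CAGCTG at 234 bases and an AP-1 match at 228 bases, which stand end to end in the printed line, and GCGTG on the opposite strand at 204 bases. The Apln window held none of the 7 motifs, which says only that these letters are not in these 250 bases. Such matches are common: of 32851 mouse promoter windows of this length, 38.6% held ACGTG or GCGTG, 13.0% held CAGCTG, 6.75% held TGANTCA and 3.45% held TGATGNAA. TTCNNNGAA stood in 7.02% and TGACGTCA in 1.55%. Whether any factor binds these matches was not measured.

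The 6 libraries held 25223218 to 30865945 reads assigned to genes. Senp7 itself (chr16:56048338-56190012, plus strand) had 275.0, 279.2 and 346.7 normalized counts under SENP7 siRNA, against 556.4, 616.4 and 648.8 under control siRNA. The transcript fell by 1.02 ± 0.11 (SE) on the log2 scale (limma with Benjamini-Hochberg adjustment, adjusted p = 0.000428). Markers of differentiated muscle were abundant in every library, and the summed level of the 12 genes was 793504 to 875672 normalized counts under SENP7 siRNA and 736789 to 787829 under control siRNA, with 3 genes higher and 1 lower. Of 10 markers of myoblasts and dividing cells 2 rose, and their sums were 8058 to 10042 under SENP7 siRNA and 8469 to 11019 under control siRNA. Adipocyte markers were close to nil, with sums of 1.89 to 4.44 under SENP7 siRNA and 3.02 to 3.89 under control siRNA over 7 genes. Sums over 7 fibroblast markers were 2141 to 2499 under SENP7 siRNA and 3150 to 3460.2 under control siRNA, with 2 of 5 tested genes higher and 2 lower. The mean log2 level of the tested 5 was 7.59 to 7.97 under SENP7 siRNA and 7.19 to 7.59 under control siRNA, so it did not fall with the sum. The 9 leukocyte markers summed to 182 to 261 under SENP7 siRNA and 953 to 1112 under control siRNA. Most of that sum was Ighm, at a mean of 149.8 under SENP7 siRNA and 974 under control siRNA. Of 3 tested leukocyte markers 1 rose and 1 fell. Itgam had 46 reads over the SENP7 libraries and 20 over the controls, while Adgre1 and Tyrobp had no read. The 7 endothelial markers summed to 131 to 160.1 under SENP7 siRNA and 90.7 to 111 under control siRNA. The part of these other markers in the results was not tested. Of the tested markers 33.3% were called for muscle, 20% for myoblasts, 80% for fibroblasts, 66.7% for leukocytes and 33.3% for endothelial cells (adjusted p below 0.05). Over all genes tested the share was 20.9%. Among the controls, replicate 3 stood apart: on the first principal component (64.4% of the variance) the SENP7 libraries lay at -27.7, -29.0 and -32.5, control replicate 3 at 19.1 and the other controls at 36.7 and 33.4. On the second component (15.9%) it lay at -29.8, while the other 5 libraries lay between -8.24 and 14.7. The plot of fold changes gives each member with and without it.

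SENP7 siRNA raised Fgf21, Igf1, Il15 and Fndc5 and lowered Lif, while Angptl4, Il6, Metrnl and Bdnf did not pass the test. Apln was lower too, but its call was lost in 8 of 16 alternative settings. All 10 members passed the filter on low values, which kept the 14668 genes that reached 10 normalized counts in 3 or more libraries. Of these genes 20.9% were called at an adjusted p below 0.05 (10.2% higher and 10.7% lower), against 4 members higher and 2 lower. The libraries of the 2 groups did not overlap in 6 members, and over all genes tested this held for 39.6%. Fold changes of the members ran from -1.90 to 1.31 on the log2 scale with a median of -0.14, while the median of all genes tested was -0.0025. Log2 fold changes are of normalized count + 1, which understates the change of low genes.

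**Figure D1:**
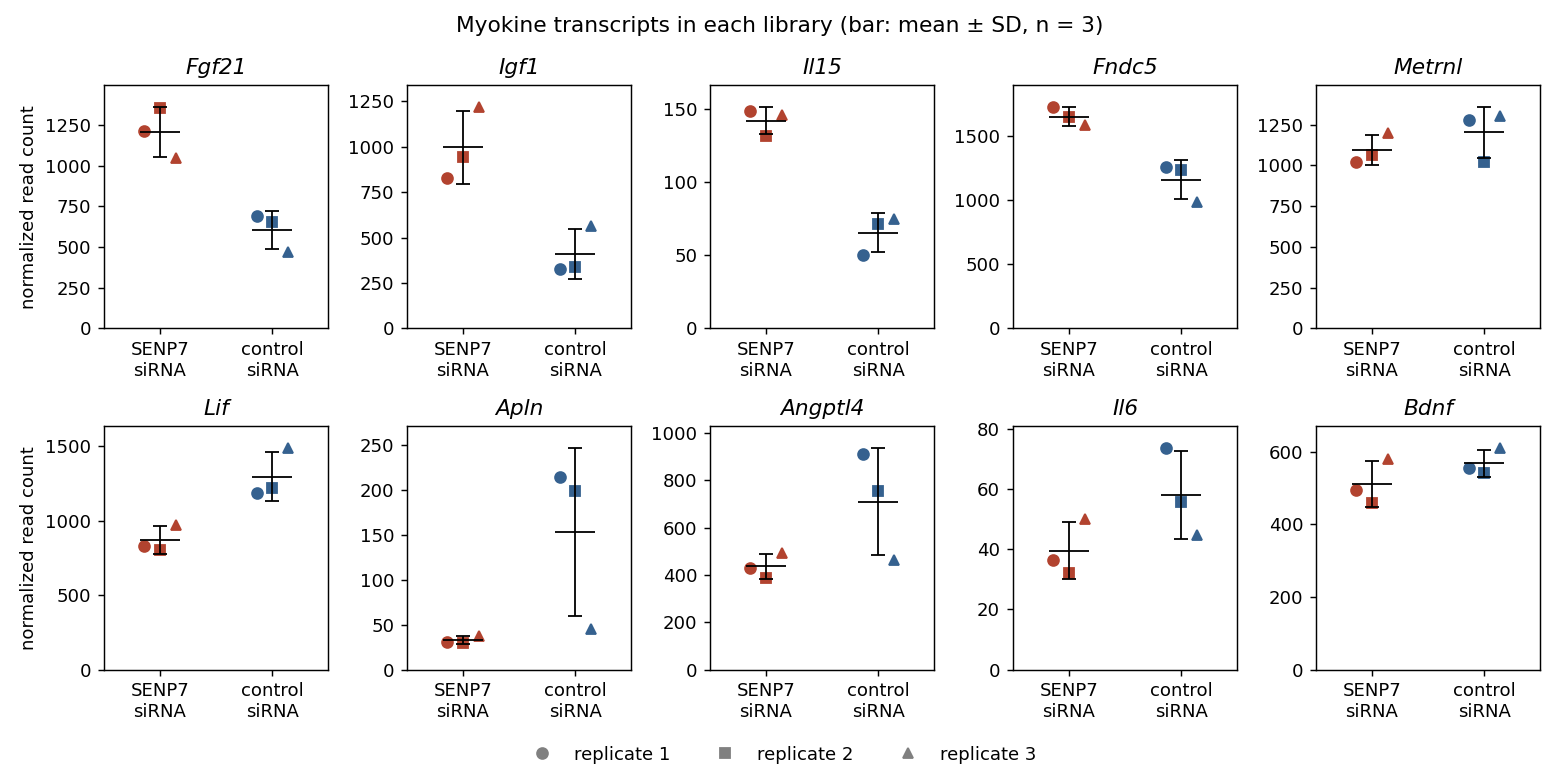
Normalized counts (linear axis) of the 10 myokine genes in each library, SENP7 siRNA on the left and control siRNA on the right of every panel, points for libraries, bars for the mean and error bars for the SD (n = 3 each). The 3 SENP7 libraries stand above all controls in Fgf21, Igf1, Il15 and Fndc5 and below all controls in Lif and Apln, and the lowest control point of Apln, 45.7, is replicate 3.

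Fgf21 (chr7:45613886-45615490, minus strand) encodes the hormone that signals through FGF receptors with the coreceptor beta-klotho. It had 1216, 1355 and 1049.6 normalized counts under SENP7 siRNA, against 688, 655 and 468 under control siRNA. Every SENP7 library lay above every control, and the lowest control was replicate 3. The means were 1207 ± 153 under SENP7 siRNA and 604 ± 119 under control siRNA (SD, n = 3 each, as for all means below), and the log2 fold change was 1.01 ± 0.15 (SE, 95% interval 0.67 to 1.35, adjusted p = 0.00205). Fgf21 passed the test in all 16 alternative settings, with changes of 0.84 to 1.115. By profile over the 6 libraries, the 3 genes most like Fgf21 among 11936 compared were Atp8b1, A730056A06Rik and Pgam2, with root mean square differences of 0.0648, 0.0661 and 0.0737 on the centred log2 scale. Pgam2, the muscle form of phosphoglycerate mutase, had 5995, 6053 and 5358 normalized counts under SENP7 siRNA, against 3079, 3099.6 and 2317 under control siRNA.

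Genes of the integrated stress response, a pathway through ATF4 that is known to drive Fgf21 in muscle, held 1 called gene. Of 22 such genes tested that 1 rose and none fell, and their median log2 fold change was 0.02. That is 4.55% of the list called, below the 20.9% of all genes tested. That gene was Sesn2, a stress-inducible regulator of mTORC1, with 635, 625 and 584 normalized counts under SENP7 siRNA and 484, 498 and 556 under control siRNA. Its groups did not overlap, the change was 0.26 (adjusted p = 0.0462), and the call was lost in 7 of 16 settings, among them without SENP7 replicates 1, 2 or 3 or control replicates 1 or 2 (adjusted p of 0.168, 0.153, 0.0619, 0.113 and 0.151). The next by adjusted p were Ddit4 (-0.31, adjusted p = 0.0666), Shmt2 (0.17, 0.105) and Psat1 (0.28, 0.110), and Atf4 itself was at -0.13 (adjusted p = 0.336). Psat1 and Shmt2 passed without SENP7 replicate 3 (0.42 and 0.24, adjusted p of 0.00912 and 0.0373), and Ddit4 passed as lower in 4 of 16 settings. The mean log2 level of the list was 9.98, 9.99 and 9.75 under SENP7 siRNA and 9.89, 9.87 and 9.91 under control siRNA. SENP7 replicate 3 was thus the lowest library, and the other SENP7 libraries were the highest. A p that misses the threshold does not show that these genes were equal in both groups.

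Igf1 (chr10:87858265-87937042, plus strand) encodes insulin-like growth factor 1. Its normalized counts were 827, 945 and 1219 under SENP7 siRNA, against 325, 337 and 566 under control siRNA. The groups did not overlap, although replicate 3 was the highest library in both, and control replicate 3 stood 1.71 times above the mean of the other controls. The means were 997 ± 201.3 under SENP7 siRNA and 409 ± 136 under control siRNA, with a log2 fold change of 1.31 ± 0.21 (95% interval 0.83 to 1.80, adjusted p = 0.00334), the largest rise among the 10 members. Without control replicate 3 the change was 1.57 (adjusted p = 4.31e-05). Igf1 passed in 15 of 16 settings and missed with no filter on low values (adjusted p = 0.0683).

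IGF binding proteins hold IGF-1 outside the cell and set how much of it reaches its receptor. Of 6 tested 1 rose and 2 fell (50% called, beside 20.9% of all genes tested). Igfbp3, the main carrier in blood, had 811, 740.3 and 1088 normalized counts under SENP7 siRNA, against 341, 327 and 469 under control siRNA. All 3 SENP7 libraries lay above the controls, with a change of 1.21 ± 0.17 (adjusted p = 0.00159). Igfbp2 had 1308, 1349 and 773 normalized counts under SENP7 siRNA, against 3984, 3579 and 2223 under control siRNA. It fell by 1.51 ± 0.25 on the log2 scale (adjusted p = 0.00363; 0.0854 with no filter), again with no overlap and with replicate 3 the lowest in both groups. Igfbp7 fell by 0.42 (adjusted p = 0.0136; 0.0555 and 0.0615 without SENP7 replicates 1 and 2), and Igfbp6 did not pass (-0.24, adjusted p = 0.0555). In 4 of 16 settings Igfbp6 did pass as lower. Igfbp1 had no read. The IGF-1 receptor gene Igf1r was level, with 2245 ± 194 normalized counts under SENP7 siRNA and 2235 ± 369 under control siRNA and a change of 0.02 (95% interval -0.24 to 0.27, adjusted p = 0.941). Of 11 tested proteases that process or shed such factors 1 rose (9.09% called, below the 20.9% of all genes tested). That 1 was Pappa2, which cuts IGF binding proteins. Pappa2 had 62.1, 43.9 and 77.7 normalized counts under SENP7 siRNA against 30.2, 33.4 and 33.1 under control siRNA. Its change was 0.87 (adjusted p = 0.0255), and the call was lost without SENP7 replicates 1 or 3 or control replicates 1 or 2 (adjusted p of 0.0905, 0.0849, 0.0695 and 0.0775). Furin, the prohormone convertase, did not pass (-0.18, adjusted p = 0.169), nor did its relatives Pcsk6 (0.57, 0.146) and Pcsk4 (-0.19, 0.353). Without control replicate 3 Furin and Pcsk6 passed (-0.27 and 0.87, adjusted p of 0.00374 and 0.00386).

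Il15 (chr8:82331632-82403222, minus strand) had 149, 132 and 146 normalized counts under SENP7 siRNA, against 50.4, 71.2 and 74.9 under control siRNA. The SENP7 libraries lay close together and well above all controls. Means were 142 ± 9.31 under SENP7 siRNA and 65.5 ± 13.2 under control siRNA, and the log2 fold change was 1.13 ± 0.17 (95% interval 0.74 to 1.51, adjusted p = 0.00247), with a call in all 16 settings. Its private receptor chain Il15ra, which presents IL-15 to neighbouring cells, was too low to test, with 32 reads over the SENP7 libraries and 15 over the controls. The ratio was 2.00, and its exact 95% interval of 1.05 to 3.97 covers counting error only.

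Fndc5 (chr4:129136999-129144593, plus strand) encodes the precursor from which irisin is cut. It had 1727, 1647 and 1583 normalized counts under SENP7 siRNA, against 1258, 1237 and 986 under control siRNA. The groups did not overlap and control replicate 3 was the lowest. Means were 1652 ± 71.9 under SENP7 siRNA and 1160.5 ± 151 under control siRNA, and the log2 fold change of 0.52 ± 0.09 (95% interval 0.30 to 0.73, adjusted p = 0.00581) was the smallest of the 4 rises, with a call in all 16 settings. The coactivator gene Ppargc1a, which encodes PGC-1alpha and is known to induce Fndc5 in muscle, had 224, 203 and 300.3 normalized counts under SENP7 siRNA, against 55.4, 80.1 and 119 under control siRNA. It rose by 1.55 ± 0.26 on the log2 scale (adjusted p = 0.00377) with no overlap. Itgb5, part of an integrin described as an irisin receptor, fell by 0.32 on the log2 scale (adjusted p = 0.0401), but missed the threshold in 5 of 16 settings, among them without SENP7 replicates 1 or 2 or control replicates 1 or 2 (adjusted p of 0.155, 0.148, 0.0992 and 0.0519).

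Metrnl (chr11:121701544-121716306, plus strand) encodes meteorin-like. It had 1022, 1062 and 1201 normalized counts under SENP7 siRNA, against 1281, 1024 and 1302 under control siRNA. The groups overlapped, with control replicate 2 at the level of SENP7 replicate 1. The log2 fold change was -0.13 with a 95% interval of -0.36 to 0.10 (adjusted p = 0.415), and Metrnl passed in none of the 16 settings.

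Apln (chrX:48025146-48034853, minus strand) encodes apelin. It had 31.1, 30.0 and 37.9 normalized counts under SENP7 siRNA, against 215, 199 and 45.7 under control siRNA. Control replicate 3 lay just above the highest SENP7 library and at 0.221 of the mean of control replicates 1 and 2, and the SD of the controls was 61.0% of their mean. Means were 33.0 ± 4.30 under SENP7 siRNA and 153 ± 93.4 under control siRNA, and the transcript fell by 1.90 ± 0.50 on the log2 scale (95% interval -3.04 to -0.76, adjusted p = 0.0279). Without control replicate 3 the change was -2.62 (adjusted p = 1.48e-06). The call was lost with the replicate block (adjusted p = 0.107), with limma-voom (0.105) and with no filter (0.226). It was also lost without any other single library, with adjusted p of 0.0927, 0.0967 and 0.0751 without SENP7 replicates 1, 2 and 3, and 0.0941 and 0.127 without control replicates 1 and 2. The apelin receptor gene Aplnr had 14 reads over the SENP7 libraries and 2 over the controls, a ratio of 6.55 with a counting interval of 1.51 to 59.4.

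Angptl4 (chr17:33773750-33781830, minus strand) encodes a secreted inhibitor of lipoprotein lipase that fasting and low oxygen induce. It had 428, 387 and 494 normalized counts under SENP7 siRNA, against 910.2, 753 and 464 under control siRNA. Control replicate 3 fell inside the SENP7 range while control replicates 1 and 2 stood well above it. Means were 436 ± 54.2 under SENP7 siRNA and 709 ± 226 under control siRNA, and the log2 fold change of -0.65 ± 0.21 (95% interval -1.14 to -0.17) missed the threshold (adjusted p = 0.0619). It passed with DESeq2 on the recovered reads (-0.70, adjusted p = 0.00511) and without control replicate 3 (-0.93, adjusted p = 0.000151).

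Apln and Angptl4 are both known targets of the hypoxia-inducible factors, and genes of that programme were lower under SENP7 siRNA. Of 20 hypoxia target genes tested 15 fell and none rose, with a median log2 fold change of -0.68, beside 10.7% of all genes tested lower. Egln3, the prolyl hydroxylase PHD3, had 1742, 1651 and 1369 normalized counts under SENP7 siRNA, against 7738, 8776 and 4689 under control siRNA. The groups did not overlap, and Egln3 fell by 2.11 ± 0.20 on the log2 scale (adjusted p = 0.000264). Car9, a membrane carbonic anhydrase, had 93.2, 88.8 and 139 normalized counts under SENP7 siRNA, against 1426, 1622 and 355 under control siRNA. As in Apln, the groups did not overlap and control replicate 3 was far below the other controls. Car9 fell by 3.15 ± 0.49 (adjusted p = 0.00276; 0.110 with the replicate block and 0.0759 with no filter). Without control replicate 3 its change was -3.85 (adjusted p = 7.4e-07). Ndrg1, a differentiation and stress gene, fell by 0.88 (adjusted p = 0.00178), and Vegfa, itself a factor that muscle secretes, fell by 0.61 (adjusted p = 0.00328).

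Control replicate 3 was low over the whole hypoxia list. The summed level of the 20 genes was 138736, 137221 and 131296 normalized counts under SENP7 siRNA and 217690, 214573 and 136082 under control siRNA. By this sum control replicate 3 lay within the range of the SENP7 libraries. Gene by gene, the groups did not overlap in 15 of the 20, beside 39.6% of all genes tested. On the log2 scale and taking the average of controls 1 and 2 as 0, the mean of the list was -1.12, -1.17 and -1.16 in the SENP7 libraries and -0.82 in control replicate 3. Apln stood at -2.70, -2.75 and -2.42 in the SENP7 libraries and at -2.15 in control replicate 3. On the same scale Angptl4 was at -0.95, -1.09 and -0.74 under SENP7 siRNA and at -0.83 in control replicate 3. Fgf21, Fndc5 and Il6 were lower in control replicate 3 than in either other control too, by smaller steps (-0.52, -0.34 and -0.51). Among the hypoxia genes 18 fell without control replicate 3. With another library left out the number was 7, 6 and 7 (SENP7 replicates 1, 2 and 3) and 8 and 5 (control replicates 1 and 2), and it was 3 with no filter on low values. Among transcripts of the factors themselves, Hif1a did not pass (-0.13, adjusted p = 0.174). Of the 16 alternative settings Hif1a passed in 1, without control replicate 3 (-0.18, adjusted p = 0.03). Epas1, which encodes HIF-2alpha, was low, with 17.7, 13.9 and 12.3 normalized counts under SENP7 siRNA, against 5.04, 2.23 and 7.78 under control siRNA. It was higher by 1.48 ± 0.41 on the log2 scale (adjusted p = 0.0337) with no overlap, a call held in 8 of the 15 settings that tested it. Epas1 passed the filter on low values only through the SENP7 libraries, which favours both a call and groups that do not overlap. The call was lost without any single library other than control replicate 3 (adjusted p of 0.124, 0.0943 and 0.0703 without SENP7 replicates 1, 2 and 3, and 0.0665 and 0.0900 without control replicates 1 and 2), with DESeq2 (0.0780) and with quantile normalization (0.0506). It rests on 46 reads over the SENP7 libraries and 15 over the controls, a ratio of 2.87 with a counting interval of 1.57 to 5.54. Oxygen in the cultures was not measured, and its part in the values of Apln and Angptl4 was not tested.

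**Figure D2:**
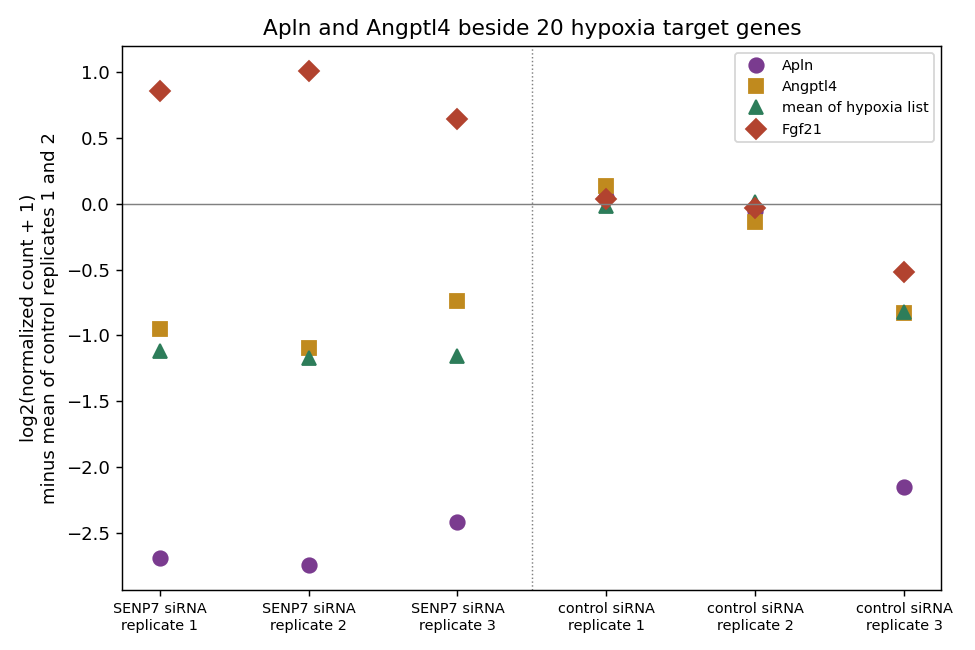
Log2 level of each library relative to the average of controls 1 and 2, SENP7 siRNA libraries to the left of the controls, for the mean of the hypoxia list and for myokine genes. Control replicate 3 sits at -0.82 for the list, at -2.15 for Apln and at -0.83 for Angptl4, close to the SENP7 libraries.

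Lif (chr11:4257557-4272514, plus strand) encodes leukaemia inhibitory factor, a cytokine that promotes myoblast proliferation. It had 831, 801 and 973 normalized counts under SENP7 siRNA, against 1183, 1216 and 1484 under control siRNA. The groups did not overlap and replicate 3 was the highest library in each. Means were 869 ± 91.6 under SENP7 siRNA and 1295 ± 165 under control siRNA, and Lif fell by 0.57 ± 0.10 on the log2 scale (95% interval -0.81 to -0.34, adjusted p = 0.00569), with a call in all 16 settings and changes of -0.66 to -0.47. The genes closest to Lif by profile were Deptor, Clip4 and Gm35853, with root mean square differences of 0.0467, 0.0480 and 0.0496 on the centred log2 scale over the 6 libraries. Deptor, an inhibitor of mTOR, had 6162, 5858 and 7134 normalized counts under SENP7 siRNA, against 8199, 9229 and 10352 under control siRNA.

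Il6 (chr5:30013114-30019981, plus strand) was a low transcript. It had 36.4, 32.1 and 50.2 normalized counts under SENP7 siRNA, against 73.6, 55.6 and 44.7 under control siRNA. The groups overlapped, since SENP7 replicate 3 lay above control replicate 3. The log2 fold change of -0.54 had a 95% interval of -1.08 to 0.01 (adjusted p = 0.151), and of 15 settings that tested it Il6 passed in 1, without control replicate 3 (-0.71, adjusted p = 0.0406).

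Lifr, the ligand-specific chain for LIF, had 3423, 3312 and 4025 normalized counts under SENP7 siRNA, against 1945, 1976 and 3068 under control siRNA. It was higher by 0.65 ± 0.16 on the log2 scale (adjusted p = 0.0224) with no overlap, a call held in 10 of 16 settings. It was lost without SENP7 replicates 1, 2 or 3 or control replicates 1 or 2 (adjusted p of 0.0665, 0.0582, 0.0838, 0.0746 and 0.107) and with no filter (0.179). The shared chain gp130, from Il6st, was at 6679, 6474 and 7301 normalized counts under SENP7 siRNA, against 4971, 5383 and 6428 under control siRNA, and did not pass (0.29, adjusted p = 0.0633). Il6ra, the IL-6 receptor chain, was at -0.20 (95% interval -0.54 to 0.15, adjusted p = 0.399).

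Among 20 genes of gp130 and STAT3 signalling and their targets 3 rose and 2 fell, with a median of 0.06. That is 25.0% of the list called, close to the 20.9% of all genes tested. Without SENP7 replicate 1 or control replicate 2 only 1 rose, and without SENP7 replicate 2 or control replicate 2 only 1 fell. Socs3, the feedback inhibitor that binds gp130, had 5015, 4696 and 6844 normalized counts under SENP7 siRNA, against 2081, 1579 and 2772 under control siRNA. It rose by 1.38 ± 0.20 on the log2 scale (adjusted p = 0.00188; 0.0566 with no filter). Socs2, the related inhibitor of growth hormone signalling, had 937, 967 and 980.5 normalized counts under SENP7 siRNA, against 1805, 1808 and 1451 under control siRNA. It fell by 0.80 ± 0.09 (adjusted p = 0.000515), so these related inhibitors moved in opposite directions with no overlap in either. Cebpd, a transcription factor gene that STAT3 induces, rose by 0.65 (adjusted p = 0.0223; 0.103 without control replicate 2, and at the threshold without SENP7 replicate 1). Ptpn11, the phosphatase SHP2, fell by 0.30 (adjusted p = 0.0125; 0.0668 and 0.0628 without SENP7 replicate 2 and control replicate 2).

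Bdnf (chr2:109674700-109727007, plus strand) encodes brain-derived neurotrophic factor. It had 494, 460.0 and 581 normalized counts under SENP7 siRNA, against 555, 541 and 609.9 under control siRNA. The groups overlapped, with SENP7 replicate 3 above control replicates 1 and 2. The log2 fold change was -0.16 with a 95% interval of -0.38 to 0.07 (adjusted p = 0.297), and no setting called it. An antisense gene, Gm45346, covers 14.4% of the exon length, and since the strand setting of the counting is not given its reads cannot be told apart from those of Bdnf with certainty. The BDNF receptor TrkB had no read in any library (Ntrk2). Sort1, whose product sortilin sorts the BDNF precursor, had 1460.4, 1508 and 1395 normalized counts under SENP7 siRNA, against 822, 886 and 1129 under control siRNA. It rose by 0.63 ± 0.11 on the log2 scale (adjusted p = 0.00428) with no overlap.

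**Figure D3:**
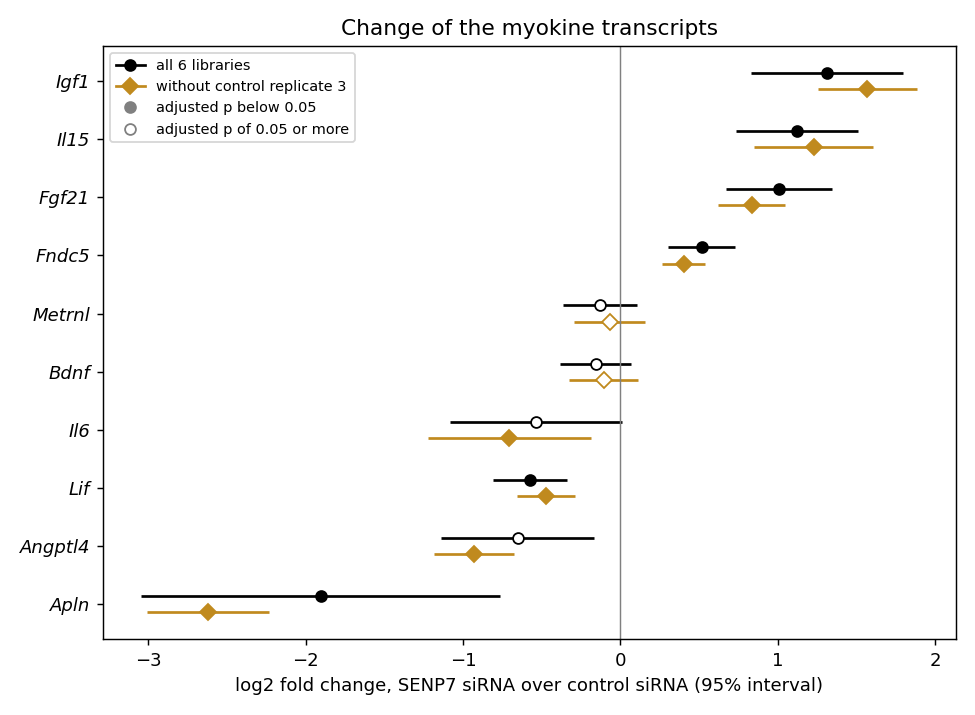
Change of the 10 myokine genes under SENP7 siRNA relative to control siRNA (log2 axis) with its 95% interval, from all 6 libraries and without control replicate 3. With all libraries Igf1 (1.31), Il15 (1.13), Fgf21 (1.01) and Fndc5 (0.52) lie above 0 and Apln (-1.90) and Lif (-0.57) below, and without control replicate 3 Apln moves to -2.62.

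Over all receptors and binding partners of the members, 13 of 20 were tested, with 3 higher (Lifr, Sort1 and Lpl) and 1 lower (Itgb5) and a median of 0.02, so that 30.8% of the list was called beside 20.9% of all genes tested. Lpl, the lipase that ANGPTL4 inhibits, had 269.7, 307 and 230.2 normalized counts under SENP7 siRNA, against 96.8, 105 and 59.3 under control siRNA. It rose by 1.65 ± 0.21 on the log2 scale (adjusted p = 0.00109) with no overlap. For FGF21, the receptor gene Fgfr1 was abundant and did not pass (-0.11, 95% interval -0.26 to 0.05, adjusted p = 0.304), while the coreceptor gene Klb had 2 reads over the SENP7 libraries and 0 over the controls. Kit and Gpihbp1 had no read.

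PPAR target genes were tested beside Angptl4 and Fgf21, which PPARs are known to induce. Of 15 tested, 5 rose and 5 fell (66.7% called, beside 20.9% of all genes tested), with a median of 0.10. Plin4, a lipid droplet coat gene, had 141, 148 and 188 normalized counts under SENP7 siRNA, against 52.4, 55.6 and 63.2 under control siRNA, and rose by 1.45 ± 0.16 on the log2 scale (adjusted p = 0.000428). Lpl belongs to this list too. Cd36, which takes up fatty acids, fell by 0.40 (adjusted p = 0.00752), and Acadl, a mitochondrial enzyme of fatty acid oxidation, fell by 0.47 (adjusted p = 0.00754). Leaving out SENP7 replicates 1 or 2 or control replicate 2 left 2 higher and 2 lower in each case.

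Of 27 tested transcription factors and coactivators known to act on these genes, 9 rose and 1 fell, with a median of 0.11. These are 33.3% higher and 3.70% lower, beside 10.2% and 10.7% of all genes tested. The 9 include Epas1, which passed the filter on low values only through the SENP7 libraries. Fos, a subunit of AP-1, had 2493, 2576 and 2513 normalized counts under SENP7 siRNA, against 1411, 1413 and 1325 under control siRNA, and rose by 0.87 ± 0.06 on the log2 scale (adjusted p = 3.27e-05). Its partner Jun rose by 0.41 ± 0.06 (adjusted p = 0.00143). The AP-1 match printed for Lif belongs to a gene that fell, and Igf1, Il6 and 1 window of Bdnf held such a match as well (37, 249 and 152 bases before the start). Ppargc1b, the relative of Ppargc1a, had 371, 332 and 387 normalized counts under SENP7 siRNA, against 247, 230.3 and 258 under control siRNA, and rose by 0.57 ± 0.10 (adjusted p = 0.00396).

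Among 36 other muscle-secreted factors tested 9 rose and 10 fell (52.8% called, beside 20.9% of all genes tested), with a median of 0.03, so secreted factors as a class had members in both directions. Cxcl1, a neutrophil chemokine, had 156, 131 and 154 normalized counts under SENP7 siRNA, against 25.2, 16.7 and 26.3 under control siRNA. It rose by 2.66 ± 0.20 on the log2 scale (adjusted p = 8.09e-05). Mstn, the muscle growth inhibitor myostatin, had 39 reads over the SENP7 libraries and 1 over the controls, a ratio of 36.5 with a counting interval of 6.18 to 1479. It is counted among the 9 rises, but it passed the filter on low values only through the SENP7 libraries, which favours a call. The filter favoured Cxcl5 too, another of the 9. It had 36.4, 35.3 and 42.6 normalized counts under SENP7 siRNA, against 2.02, 4.45 and 11.7 under control siRNA. Fgf2, a mitogen of myoblasts, had 428, 404 and 409 normalized counts under SENP7 siRNA, against 634, 605 and 649.8 under control siRNA, and fell by 0.60 ± 0.07 (adjusted p = 0.000644). Il1b, an inflammatory cytokine, had 16.9, 18.2 and 15.2 normalized counts under SENP7 siRNA, against 55.4, 47.8 and 51.6 under control siRNA, and fell by 1.57 ± 0.19 (adjusted p = 0.000842). The groups did not overlap in Cxcl1, Mstn, Fgf2 or Il1b, which for Mstn the filter favoured. Without control replicate 3, 13 factors fell, and without any other single library 5 or 6 did.

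**Figure D4:**
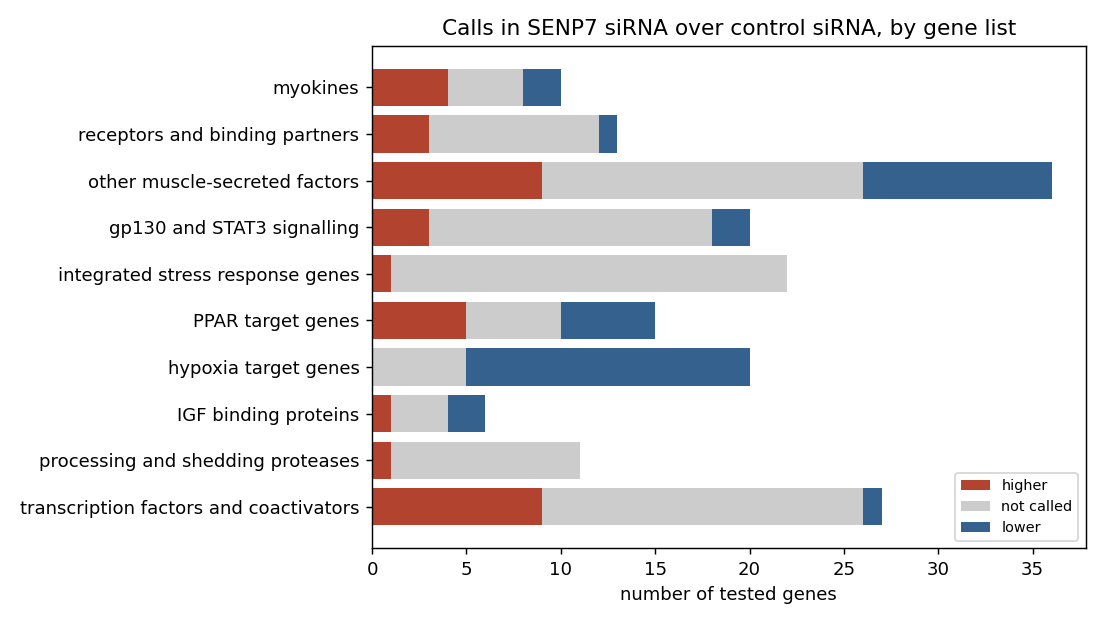
Number of genes called higher and lower under SENP7 siRNA in the myokine set and in each list tied to it, at an adjusted p below 0.05. The hypoxia list holds 15 lower and 0 higher of 20 tested, the transcription factor list 9 higher and 1 lower of 27, and the other secreted factors 9 higher and 10 lower of 36.

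Levels can be set side by side between genes once divided by exon length. Per kilobase of exon, Fgf21 was the highest member under SENP7 siRNA at 1269 ± 161 normalized counts, followed by Metrnl (691), Fndc5 (598), Lif (199.7), Angptl4 (123), Igf1 (101), Bdnf (82.3), Il15 (62.9), Il6 (16.3) and Apln (10.5). In that order the libraries of Angptl4 and Igf1 overlapped, as did those of Igf1 and Bdnf. Under control siRNA Metrnl came first at 758 ± 97.9 and overlapped Fgf21 at 635 ± 125, before Fndc5 (420.0), Lif (298), Angptl4 (200.3), Bdnf (91.5), Apln (48.6), Igf1 (41.3), Il15 (29.0) and Il6 (23.9). The last 4 overlapped each with its neighbour. Among all 14668 genes tested Fgf21 stood at the percentile 92.9 of levels per kilobase under SENP7 siRNA and 84.7 under control siRNA. Igf1 stood at 43.6 under SENP7 siRNA and 28.1 under control siRNA, and Apln at 11.4 under SENP7 siRNA and 30.4 under control siRNA.

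In the authors' deposited table, 7 of the 10 members had an adjusted p below 0.05, beside 9.26% of the 27493 genes that have a p there. The additional member was Angptl4, at -0.59 on the log2 scale (adjusted p = 0.00952) in the authors' deposited table. Apln was at -0.70 (adjusted p = 0.0178) in the authors' deposited table, a smaller size than the -1.90 of the fit described here. The rises were 1.07 for Igf1, 0.92 for Il15, 0.90 for Fgf21 and 0.48 for Fndc5 in the authors' deposited table, and Lif was at -0.54. Il6, Bdnf and Metrnl had adjusted p of 0.411, 0.730 and 0.797 in the authors' deposited table.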

How the data were processed

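Polyadenylated RNA of 6 cultures was sequenced as paired reads from a directional kit in 1 common run, per the labels' protocols. The submitters' processing notes name STAR 2.6.1d and featureCounts 1.6.4 with GRCm38.p6, Trim Galore 0.6.4, bcl2fastq and DESeq2. The strand setting, annotation release and DESeq2 version were not given in the sources used here. Deposited was 1 table with a normalized signal per library, which from its values is the authors' read count divided by 1 factor per library, and the authors' log2 fold change with its standard error, Wald score and p-value, per the file headers. Within a tolerance of 0.1 read, 100% of the positive values of each library equalled a whole number of reads, so reads were recovered for the count-based alternatives and a normalized count of 1 is about 1 read.

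limma 3.58.1 (R 4.3.3, mean-variance trend, robust empirical Bayes) was fitted on log2(normalized count + 1) over the 14668 genes that reached 10 in 3 or more libraries, on group alone. Tests were two-sided with Benjamini-Hochberg adjustment over all genes tested at a threshold of 0.05, and the procedure was tested on simulated data. Intervals are 95% intervals, and those on read ratios are exact (Clopper-Pearson) and cover counting error only. Exon lengths are those the authors deposited. Overlaps came from GENCODE M21, in which all 54349 shared identifiers have the same coordinates, and 727 of 987 blank names were filled from it. Without a known strand setting, reads of Shmt2, Furin, Il1b, Fgfr1, Il6ra, Sort1, Hif1a, Igfbp7, Jun, Ndrg1, Car9, Fgf2 and Cebpd are uncertain where antisense genes cover 1.03% to 15.0% of their exons. Another gene on the same strand covers 3.76% of Fgf2, 3.01% of Pappa2, 3.01% of Pcsk6 and 2.51% of Hif1a. Overlap was not computed for Plin4 and Vegfa. Chi3l1 was not analysed here, and Ero1a was read as Ero1l.

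The members, lists and rules were chosen with earlier results of these data known. Named are all 10 members, Senp7, the members' direct receptors, at most 4 genes per list (those of smallest adjusted p), and the 3 genes nearest in profile to the member with the smallest adjusted p in each direction (mean of at least 50). Atf4, Hif1a and Epas1 (the listed regulators of the stress and hypoxia genes), Cxcl5 and genes of the marker lists are named beyond that rule, after their values were seen. The 16 alternatives were a replicate block, edgeR 4.0.16, DESeq2 1.42.0 and limma-voom on recovered reads, TMM and quantile scaling, pseudocounts of 0.5 and 5, no filter, a mean of at least 50, and each of the 6 libraries left out.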

Additional observations from a re-analysis of the deposited data

How the results depend on the processing

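Fgf21, Il15, Fndc5 and Lif kept their direction and their call in all 16 alternatives, and Metrnl and Bdnf passed in none. No member changed sign. Igf1 missed the threshold with no filter on low values (1.31, adjusted p = 0.0683). Apln missed it with the replicate block (-1.90, adjusted p = 0.107), with limma-voom (-1.89, 0.105) and with no filter (-1.90, 0.226), and leaving out 1 library gave -2.62 to -1.52. Angptl4 passed with DESeq2 (-0.70, adjusted p = 0.00511), and leaving out 1 library gave -0.93 to -0.44. For Il6 that range was -0.72 to -0.35, and Il6 was not tested at a mean of at least 50. The count of lower members was 1 with the block, with limma-voom and with no filter, and 1 to 4 with 1 library left out, beside 2 from all libraries. Over all lists 30 genes rose and 35 fell, 21 fell with no filter, and leaving out 1 library gave 18 to 37 higher and 15 to 49 lower. Over all genes those ranges were 805 to 2289 higher and 754 to 2413 lower, and both highest counts were without control replicate 3. Deviations of same-numbered libraries correlated at 0.13, 0.0624 and 0.251, and the value for replicate 3 was the highest of all pairs. SENP7 replicate 2 correlated best with control replicate 1 (0.141). SENP7 replicate 3 stood at -0.22 and -0.0995 with control replicates 1 and 2. Control replicate 3 stood at -0.15 and -0.16 with SENP7 replicates 1 and 2. Whether same-numbered cultures were handled together is not given, and an effect shared by both libraries of replicate 3 was not tested. The block called 2052 genes higher and 2123 lower. Why calls changed with the filter or with a library left out was not tested. Depth limits Il6 and Apln most among the members, with 30 to 53 and 28 to 40 reads per SENP7 library.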
